A study of Arabidopsis thaliana with 20 samples.

Results

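The short transposable elements (TEs) of Arabidopsis thaliana were taken as every annotated TE with an id of the form AT1TE00010 and a length under 500 bases in the deposited files. The rule picked 19754 of 31189 TEs (63.3%), which is 19754 of 58844 features in all. Their lengths ran between 10 and 499 bases with a median of 142 bases, so many were shorter than a sequencing fragment. Of these elements, 13878 had no count in any of the 20 libraries and 5876 (29.7%) had at least 1 count somewhere, and 536 were counted in all 20 libraries. A filter that asks for about 10 counts in the libraries of a group kept 1020 in the meiocyte fit and 1144 in the seedling fit, 1459 in either and 705 in both. Every test below is about those, and the other elements are described by their counts alone.

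TEs are DNA sequences that move or once moved within the genome, and many of the short annotated copies are remnants of older insertions. Plants keep TEs silent by DNA methylation, which RNA-directed DNA methylation (RdDM) places on them anew: RNA polymerase IV makes the precursors of small RNAs, RNA polymerase V makes a scaffold transcript at the target, and the small RNAs guide a methyltransferase there. SUVH2 and SUVH9 are a pair of related proteins that bind methylated DNA and bring RNA polymerase V to it. POL2A is the catalytic subunit of DNA polymerase epsilon, which copies DNA during replication. TE ids are numbered along each chromosome, and the digit after AT is the chromosome.

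Polyadenylated RNA was sequenced from male meiocytes, the cells that undergo meiosis in the anther, collected from floral buds of stages 9 to 10, and from 20-day-old seedlings. In each tissue there were 5 genotypes with 2 libraries each: pol2a-1, pol2a-2, the suvh2suvh9 double mutant, the pol2a-1suvh2suvh9 triple mutant and wild type (WT). Plants grew at 20 °C with 16 h of light, and a library came from 300 to 400 pooled meiocyte masses or from 4 to 5 plants. What each allele changes is not given in the labels, and for samples whose titles read pol2a-2 the genotype field reads pol2a-1.

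Libraries held 11906055 to 34451852 counts. SUVH9 stood at 0 to 0.059 CPM (counts per 1000000 counts of a library) in the 4 suvh2suvh9 and triple mutant meiocyte libraries, against 6.54 and 13.4 CPM in WT meiocytes. In seedlings SUVH9 stood at 0.522 to 1.16 CPM in these genotypes, against 29.8 and 33.8 CPM in WT. SUVH2 kept more reads, with 11.7 and 15.5 CPM in suvh2suvh9, 11.2 and 8.92 CPM in triple mutant and 41.5 and 38.4 CPM in WT meiocytes (adjusted p = 0.102 and 0.00639, edgeR). In seedlings SUVH2 had 4.07 and 3.33 CPM in suvh2suvh9, 3.97 and 4.31 CPM in the triple mutant and 7.95 and 10.8 CPM in WT. POL2A had 89.5 and 89.8 CPM in pol2a-1 meiocytes, 155 and 156 CPM in pol2a-2 meiocytes, and 165 and 236 CPM in WT meiocytes. Triple mutant meiocytes had 65.6 to 67.7 CPM. It was called lower than in WT in pol2a-1 and triple mutant meiocytes and not in pol2a-2. In seedlings POL2A had 28.5 and 29.3 CPM in pol2a-1, 30.6 and 65.9 CPM in pol2a-2, and 41.1 and 47.2 CPM in WT, so the pol2a-2 seedling libraries lay on both sides of WT. Triple mutant seedlings had 36.3 to 39.6 CPM, and POL2A was not called against WT in seedlings of any mutant. The summed level of 9 meiocyte marker genes was 3044 to 3613 CPM in meiocyte libraries and 12.7 to 42.8 CPM in seedling libraries. The summed level of 9 markers of the tapetum, the cell layer around the meiocytes, was 172 to 550 CPM in meiocyte libraries. In such bulk RNA, fewer cells of a type and less RNA per cell cannot be told apart.

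The libraries did not all treat repeated sequence alike, which bears on TEs. Among tested genes with at least 50% of their 100-base exon windows repeated in the genome, 1 to 5 of 182 were at 0 counts in the pol2a-1 and pol2a-2 meiocyte libraries and 55 to 64 of 182 in the other meiocyte libraries. In seedlings 0 or 1 of 141 such genes were at 0 in the suvh2suvh9 and triple mutant libraries and 30 to 38 of 141 in the others. Chloroplast genes took 0.0215% to 0.0443% of counts in the suvh2suvh9 and triple mutant seedlings and 2.11% to 2.42% in the other seedlings. The comparisons of pol2a-1 or pol2a-2 with WT in meiocytes and of suvh2suvh9 or the triple mutant with WT in seedlings thus cross the divide in repeated genes. There the genotype, the handling of repeats and any other difference between these libraries cannot be told apart. The other comparisons lie within 1 side of it. The files give no TE positions, so reads of an element's own transcript and reads of a gene transcript that runs through it cannot be told apart either.

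By having any count at all, short TEs were read less often than longer ones. At least 1 count in some library was found for 29.7% of short TEs, against 37.8% of the 8980 TEs of 500 to 1999 bases, 67.4% of the 2455 TEs of 2000 bases or more and 95.5% of nuclear genes. By the filter for testing the order differed: in meiocytes 5.16% of short TEs passed, 3.79% of those of 500 to 1999 bases and 4.68% of the longer ones. In seedlings 5.79%, 4.43% and 8.39% passed. Together the short TEs still held most TE counts, 69.1% to 73.2% in meiocyte libraries and 71.1% to 76.0% in seedling libraries. Within the short TEs the share with a count was 23.1% under 50 bases, 26.9% at 50 to 99 bases and 35.4% at 400 to 499 bases. On the 2 sides of the length limit, 120 of 339 elements of 480 to 499 bases and 120 of 319 elements of 500 to 519 bases had a count.

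In meiocytes the summed level of the short TEs was 6882 ± 370 CPM in pol2a-1, 7528 ± 376 in pol2a-2, 7948 ± 47.6 in suvh2suvh9, 7508 ± 220 in the triple mutant and 8152 ± 1064 CPM in WT (mean ± SD, n = 2 each). The means of pol2a-2, suvh2suvh9 and the triple mutant lay between the WT libraries, at 8904 and 7399 CPM, and both pol2a-1 libraries (6620 and 7143 CPM) lay below them. In seedlings the sum was 6428 ± 256 CPM in pol2a-1, 6910 ± 664 in pol2a-2, 7619 ± 83.0 in suvh2suvh9, 7350 ± 165 in the triple mutant and 6818 ± 152 CPM in WT (n = 2 each). Both suvh2suvh9 seedling libraries (7561 and 7678 CPM) and both triple mutant libraries (7233 and 7467 CPM) lay above both WT libraries (6710 and 6925 CPM). These sums are given as a description, with no test.

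**Figure D1:**
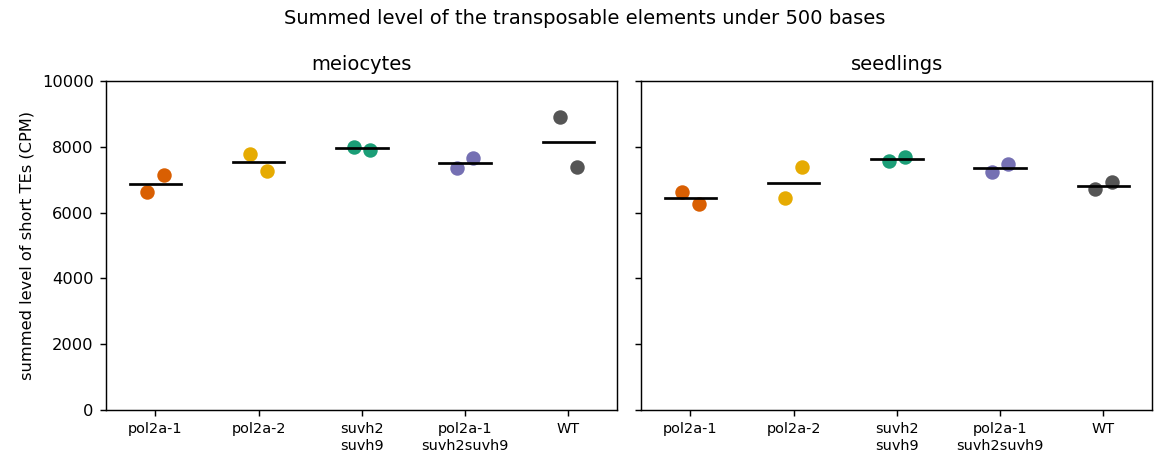
Summed level of the short TEs in each library, in CPM on a linear axis that starts at 0; points are libraries, lines are the means of 2 libraries. Seedling libraries of suvh2suvh9 and the triple mutant lie at 7233 to 7678 CPM, above the WT seedlings at 6710 and 6925 CPM, and the WT meiocyte libraries lie far apart at 8904 and 7399 CPM.

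A few elements carried much of each sum. The 10 highest short TEs held 17.4% to 20.5% of short TE counts in meiocyte libraries and 26.7% to 30.4% in seedling libraries. By mean CPM the 10 highest of WT meiocytes and the 10 highest of WT seedlings shared 1 element, AT2TE54200. At 1 CPM or more in both WT libraries of a tissue were 503 short TEs in meiocytes and 613 in seedlings, with 316 in both lists, which is 62.8% of the meiocyte list and 51.5% of the seedling list. Elements with a chromosome 4 id held 9.01% of the short TE sum in WT meiocytes and 17.6% in WT seedlings, and those of chromosome 5 held 28.3% and 22.3%. Per length, the highest in WT meiocytes were AT5TE82855 (21 bases, mean 3414 CPM per kb), AT5TE53490 (24 bases, 2300 CPM per kb) and AT2TE33750 (52 bases, 1937 CPM per kb). In WT seedlings they were AT2TE18115 (174 bases, 3548 CPM per kb), AT5TE18980 (28 bases, 2413 CPM per kb) and AT4TE59630 (192 bases, 2303 CPM per kb). For elements of 20 to 60 bases a value per kb is inflated, since any read that overlaps them is much longer than they are.

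The comparison of WT meiocytes with WT seedlings asks which short TEs are read in which tissue, and it lies within 1 side of the divide. Of 1393 short TEs tested in the fit of 20 libraries, 395 were higher and 481 lower in WT meiocytes (edgeR quasi-likelihood test, Benjamini-Hochberg adjusted p under 0.05). That is 62.9% of short TEs, against 76.8% of all 24418 features tested, of which 35.2% were higher and 41.7% lower. The median log2 difference was 0 over the tested short TEs and -0.20 over all features. Among the 395, 104 (26.3%) had no count in WT seedlings, against 8.91% of all features called higher. Among the 481, 221 (45.9%) had no count in WT meiocytes, against 20.9% of all features called lower. The library totals were 37806665 counts in WT meiocytes and 61275151 counts in WT seedlings, and features of like counts were not compared. An element without a count in 1 WT tissue passed the filter only through other groups. A difference of 16-fold or more was seen for 169 higher and 306 lower elements. The share of all features with such a difference was not worked out.

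The largest difference toward meiocytes was that of AT3TE30955 (393 bases), with 219 and 254 CPM in WT meiocytes and 0 in both WT seedling libraries. It is at least 4871-fold higher, where a group without counts is set to 3 counts over the group (adjusted p = 3.09e-10, edgeR). The element was read in every meiocyte library of every genotype, at 182 to 304 CPM, and at no more than 0.423 CPM in any seedling library. AT3TE09680 (232 bases) had 89.2 and 71.6 CPM in WT meiocytes and 0 in WT seedlings, and was at 0 in all 10 seedling libraries. AT5TE53490 and AT5TE53495, neighbours by id (24 and 179 bases), moved together: 62.1 and 48.3 CPM for the first and 68.1 and 57.5 CPM for the second in WT meiocytes, and 0 in WT seedlings for both. AT3TE30900 (234 bases) had 29.2 and 38.8 CPM in WT meiocytes and 0 in WT seedlings.

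Toward seedlings the largest differences were those of AT5TE18970, AT3TE00780, AT1TE04835, AT3TE29990 and AT5TE48720, none of which had a count in WT meiocytes. AT5TE18970 (331 bases) had no count in WT meiocytes but 79.0 and 79.6 CPM in WT seedlings, at least 999-fold lower in meiocytes (adjusted p = 2.71e-11, edgeR). AT5TE48720 (281 bases) was at 0 in all 10 meiocyte libraries and had 14.7 and 17.0 CPM in WT seedlings. The most abundant short TE of WT seedlings, AT2TE18115, had 10.5 and 10.1 CPM in WT meiocytes and 569 and 666 CPM in WT seedlings, a log2 difference of -6.22 ± 0.44 (SE; adjusted p = 1.69e-09, edgeR). AT1TE88825 (261 bases) had 0.119 and 0.430 CPM in WT meiocytes and 211 and 199 CPM in WT seedlings. Of the 8 elements with the highest level per kb in WT meiocytes, all 8 were higher in meiocytes, and of the 8 of WT seedlings all 8 were lower in meiocytes. These elements were picked for their level.

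**Figure D2:**
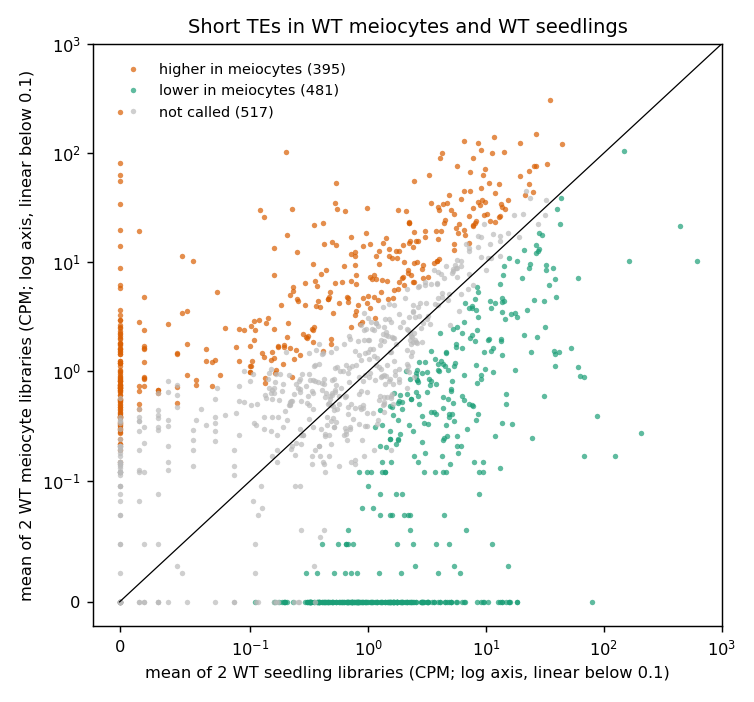
Mean level of each of 1393 tested short TEs in 2 WT meiocyte libraries (vertical) against 2 WT seedling libraries (horizontal), in CPM on log axes that are linear below 0.1. The points along the left edge include the 104 elements called higher in meiocytes with no seedling count, and those along the bottom edge the 221 called lower with no meiocyte count.

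Some neighbouring ids were called the same way between the tissues. Of the 395 higher elements, 140 had the TE with the preceding or following id, of any length, called higher too, and of the 481 lower elements 150 had such a neighbour. Of all tested short TEs 28.4% were called higher and 34.5% lower. The share expected for neighbours of any tested element was not worked out. Whether such neighbours lie in the same transcript was not tested, since no positions were used.

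In suvh2suvh9 meiocytes no short TE was called against WT, with 1 feature called of 21214 (0.00471%), and that feature was SUVH9. At an unadjusted p under 0.05 there were 21 higher and 16 lower of 1020 (2.06% and 1.57%), against 3.0% and 2.2% of all features. The DESeq2 Wald test called 7, or 0.573% of the short TEs with an adjusted p, against 0.837% of all features. The median log2 difference over the tested short TEs was -0.04, against 0.01 over all features. By counts alone, 12 of 816 short TEs with at least 5 counts in each suvh2suvh9 library had none in WT (1.47%), against 0.457% of all features so counted. The reverse held for 13 of 814 short TEs (1.60%), against 0.686% of all features. The library totals were 36448941 counts in suvh2suvh9 and 37806665 counts in WT. Whether the short TEs differ in this from other features of like counts was not tested.

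The triple mutant meiocytes had 1 short TE called against WT, AT4TE40115, with 13 features called of 21214 (0.0613%; 0.0424% higher, 0.0189% lower). AT4TE40115 (218 bases) had 7.31 and 9.21 CPM in triple mutant meiocytes and 0 in both WT libraries, at least 104-fold higher (adjusted p = 0.0373, edgeR). It had 3.78 and 1.72 CPM in suvh2suvh9 meiocytes, where the adjusted p against WT was 0.102 (edgeR), and it was at 0 in all 4 pol2a-1 and pol2a-2 meiocyte libraries. The call in the triple mutant was lost without WT replicate 1 (adjusted p = 0.0612, edgeR), without WT replicate 2 (0.0842) and without triple mutant replicate 2 (0.14), while the log2 difference stayed between 9.87 and 10.18. The DESeq2 Wald test called 17 short TEs in this comparison (1.52%), against 2.35% of all features. Over the 1020 tested short TEs the median log2 difference was -0.15, against 0.01 over all features, and 425 were positive. At an unadjusted p under 0.05, 32 were higher and 61 lower (3.14% and 5.98%), against 9.15% and 5.76% of all features.

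The same genotypes held AT4TE40115 in seedlings. There it had 0.587 and 0.262 CPM in suvh2suvh9, 1.55 and 1.26 CPM in the triple mutant and 0 in both WT libraries and in all 4 pol2a-1 and pol2a-2 libraries. The adjusted p against WT was 0.0298 in suvh2suvh9 and 0.00765 in the triple mutant (edgeR). The first of these was lost without any 1 of its 4 libraries (adjusted p up to 0.14) and the second without WT replicate 1 or triple mutant replicate 1 (up to 0.0599). Between the triple mutant and suvh2suvh9 it did not pass in meiocytes (log2 difference 1.46 ± 0.67 SE, adjusted p = 0.53) or in seedlings (1.73 ± 0.65 SE, adjusted p = 0.368, edgeR).

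AT4TE12760 (220 bases), singled out after its values were seen, was read in the same libraries. In meiocytes it had 0.612 and 0.772 CPM in suvh2suvh9, 5.33 and 5.26 CPM in the triple mutant and 0 in WT, pol2a-1 and pol2a-2. Its adjusted p in triple mutant meiocytes was 0.0822 (edgeR), so it was not called there. In seedlings it had 0.550 and 0.487 CPM in suvh2suvh9, 1.12 and 0.261 CPM in the triple mutant and 0.0290 and 0 CPM in WT, the WT value being 1 count. It was called in both seedling comparisons (adjusted p = 0.0473 and 0.0272, edgeR). The suvh2suvh9 call was lost without any 1 of the 4 libraries (adjusted p 0.148 to 0.212), and the call in the triple mutant without either WT library or triple mutant replicate 1 (up to 0.251).

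By counts alone, 38 of 881 short TEs with at least 5 counts in each triple mutant meiocyte library had none in WT (4.31%), against 2.06% of all features so counted. The reverse held for 11 of 814 short TEs (1.35%), against 0.182% of all features, at totals of 34180657 counts in the triple mutant and 37806665 counts in WT. Set against suvh2suvh9 meiocytes, 23 of the 881 had none there (2.61%, against 1.4% of all features), and the reverse held for 10 of 816 (1.23%, against 0.144%). Over all features, too, reading in the triple mutant alone was the commoner of these patterns. Apart from AT4TE40115 with 282 counts and AT4TE12760 with 181 counts over the triple mutant libraries, the 38 elements read there and not in WT had at most 34 counts. Markers of other tissues differed as well. The 9 green tissue markers summed to 557 to 1038 CPM in triple mutant, 353 to 411 CPM in suvh2suvh9 and 202 to 414 CPM in WT meiocytes, and the 9 tapetum markers to 399 to 478, 292 to 550 and 172 to 209 CPM in the same groups. All 9 green tissue markers had positive log2 differences from WT and from suvh2suvh9, with none called and none at 0, and so had all 8 tested tapetum markers from WT. The tapetum markers were not particular to the triple mutant. Of these 8, 7 were positive in suvh2suvh9 against WT (median log2 difference 1.32) and 3 in the triple mutant against suvh2suvh9 (-0.10). Their part in the result was not tested. No short TE was called between triple mutant and suvh2suvh9 meiocytes, with 8 features called of 21214 (0.0377%; 0.0283% higher, 0.00943% lower). There 28 higher and 29 lower had an unadjusted p under 0.05 (2.75% and 2.84% of 1020), against 6.07% and 3.59% of all features. The DESeq2 Wald test called 5 (0.541%), against 0.849% of all features.

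**Figure D3:**
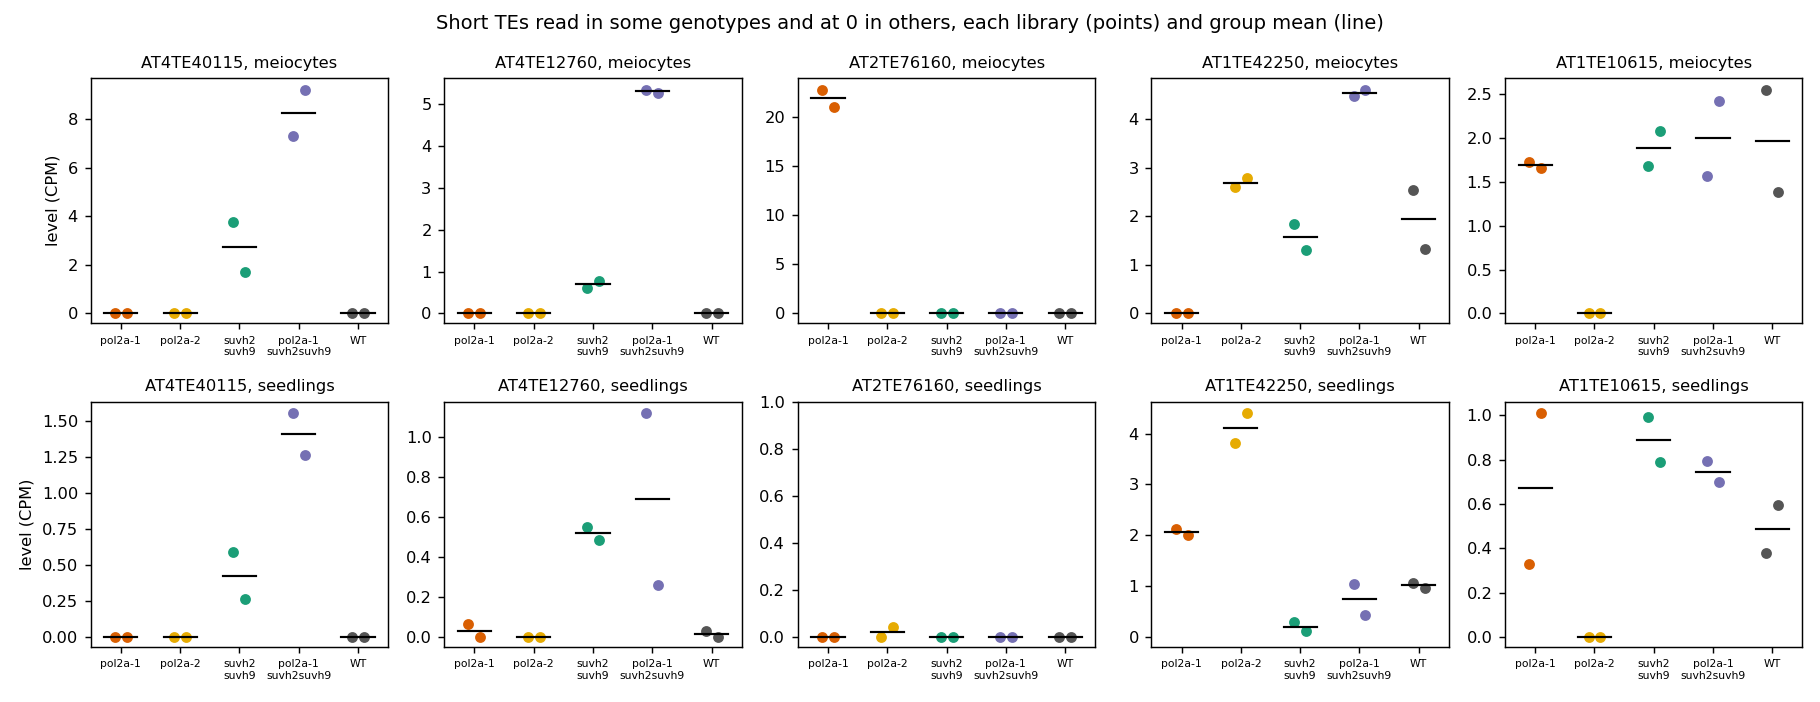
Level in CPM of 5 short TEs in every meiocyte library (top) and seedling library (bottom); points are libraries, lines are group means, and each panel has its own linear axis that includes 0. AT4TE40115 and AT4TE12760 were read in suvh2suvh9 and the triple mutant in both tissues, AT2TE76160 at 22.8 and 21.0 CPM in pol2a-1 meiocytes, AT1TE42250 at 0 in pol2a-1 meiocytes, and AT1TE10615 at 0 in all 4 pol2a-2 libraries.

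In pol2a-1 meiocytes 5 short TEs were higher and 4 lower than in WT (0.882% of 1020). Of all 21214 features 137 were called (0.646%), 0.434% higher and 0.212% lower. Over the 1020 the median log2 difference was -0.25, against 0 over all features, and 402 were positive. At an unadjusted p under 0.05, 50 were higher and 95 lower (4.90% and 9.31%), against 6.02% and 5.16% of all features. AT2TE76160 (159 bases) had 22.8 and 21.0 CPM in pol2a-1 meiocytes and 0 in WT meiocytes, at least 276-fold higher (adjusted p = 0.000557, edgeR). It was at 0 in the other 6 mutant meiocyte libraries and in 9 of 10 seedling libraries, the remaining one having 1 count. AT2TE76160 was also lower in pol2a-2 meiocytes than in pol2a-1 meiocytes, a comparison within 1 side of the divide (at least 186-fold, adjusted p = 0.00187, edgeR). Both calls were kept when any 1 library was left out.

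AT2TE14720, AT4TE14145 and AT5TE40480 were higher in both pol2a-1 and pol2a-2 meiocytes. AT2TE14720 (47 bases) had 4.77 and 6.17 CPM in pol2a-1, 13.2 and 17.7 CPM in pol2a-2 and 0 in WT. AT4TE14145 (128 bases) had 4.94 and 3.36 CPM in pol2a-1, 4.36 and 3.08 CPM in pol2a-2 and 0 in WT. AT5TE40480 (128 bases) had 38.7 and 22.1 CPM in pol2a-1, 66.2 and 56.9 CPM in pol2a-2, and 2.02 and 0 CPM in WT. AT2TE14720 and AT4TE14145 were at 0 in every WT, suvh2suvh9 and triple mutant meiocyte library and AT5TE40480 reached at most 0.870 CPM in the suvh2suvh9 and triple mutant libraries, so in meiocytes these 3 were read mainly on 1 side of the divide. Their adjusted p values were 0.00113, 0.0158 and 0.0162 in pol2a-1 and 0.00037, 0.019 and 0.00584 in pol2a-2 (edgeR). The AT4TE14145 calls were lost without WT replicate 1 or replicate 1 of the mutant, and in pol2a-2 also without WT replicate 2 (up to 0.124). The AT5TE40480 call in pol2a-1 was lost without pol2a-1 replicate 1 (0.0786). In all, 178 short TEs had at least 5 counts over the 4 pol2a-1 and pol2a-2 meiocyte libraries and were at 0 in the 6 WT, suvh2suvh9 and triple mutant meiocyte libraries. That is 10.3% of the 1730 short TEs with as many counts there, against 2.78% of all features so counted. The reverse held for 278 of 1968 short TEs (14.1%), against 4.27% of all features. Features of like counts were not compared.

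In seedlings AT4TE14145 was not read on the same side as in meiocytes. It had 0 and 0.0375 CPM in suvh2suvh9, 0.0722 and 0.218 CPM in the triple mutant, and 2.41 and 1.08 CPM in WT seedlings, and was called lower in both mutants (adjusted p = 0.0067 and 0.0198, edgeR). The first call was lost without WT replicate 1 or suvh2suvh9 replicate 1 (up to 0.0522), and the second without WT replicate 1 or either triple mutant library (up to 0.171).

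AT4TE13920 (177 bases) had 8.82 and 7.82 CPM in pol2a-1 meiocytes and 1.60 and 1.72 CPM in WT (log2 difference 2.33 ± 0.45 SE, adjusted p = 0.0365, edgeR). Its level in pol2a-2 meiocytes, 5.20 and 3.38 CPM, lay between. AT5TE88485 (204 bases) had 3.18 and 2.64 CPM in pol2a-2 meiocytes and 0.119 and 0.143 CPM in WT (adjusted p = 0.0233, edgeR), and 1.61 and 2.26 CPM in pol2a-1 (adjusted p = 0.0501). The call of AT4TE13920 was lost without any 1 of the 4 libraries (adjusted p up to 0.461), and that of AT5TE88485 without either WT library or pol2a-2 replicate 1 (up to 0.125).

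Among the 4 lower short TEs, AT1TE42250 (445 bases) was at 0 in both pol2a-1 meiocyte libraries and had 2.55 and 1.34 CPM in WT meiocytes, at least 22.7-fold lower (adjusted p = 0.00602, edgeR). It had 2.60 and 2.79 CPM in pol2a-2 meiocytes, 1.84 and 1.31 CPM in suvh2suvh9, and 4.47 and 4.61 CPM in the triple mutant, which carries pol2a-1 as well. In pol2a-1 seedlings it had 2.12 and 2.02 CPM, against 1.07 and 0.969 CPM in WT seedlings. The meiocyte call was lost without either pol2a-1 library (adjusted p up to 0.0684). AT2TE18800 (133 bases), AT5TE91270 (104 bases) and AT5TE83180 (421 bases) fell by 1.92, 1.38 and 1.34 on the log2 scale and kept reads, with 9.66 and 10.4 CPM in pol2a-1 meiocytes and 49.9 and 27.1 CPM in WT for AT2TE18800. Each of these 3 calls was lost without WT replicate 1 or either pol2a-1 library, and that of AT5TE91270 also without WT replicate 2 (adjusted p up to 0.157, 0.482 and 0.518, edgeR).

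In pol2a-2 meiocytes 4 short TEs were higher and 2 lower than in WT, or 0.588% of 1020. Of all 21214 features 137 were called here too (0.646%), 0.556% higher and 0.0896% lower. The median log2 difference over the short TEs was -0.17, against 0.04 over all features, with 424 positive. At an unadjusted p under 0.05, 27 were higher and 57 lower (2.65% and 5.59%), against 6.46% and 3.94% of all features. The lower ones were AT1TE10615 and AT1TE86740. AT1TE10615 (378 bases) was at 0 in both pol2a-2 meiocyte libraries and had 2.55 and 1.38 CPM in WT, at least 16.2-fold lower (adjusted p = 0.019, edgeR). AT1TE86740 (289 bases) had 10.7 and 7.12 CPM in pol2a-2 meiocytes and 36.5 and 18.2 CPM in WT (adjusted p = 0.0497). Both calls were lost without WT replicate 1 or without either pol2a-2 library (adjusted p up to 0.0888 and 0.178). Markers of other cells moved in the same libraries. The tapetum gene MS2 had 14.3 and 3.82 CPM in pol2a-2 meiocytes and 0 and 0.0478 CPM in WT, and was the 1 of 8 tested tapetum markers called (adjusted p = 0.00871, edgeR). The tapetum markers summed to 185 to 391 CPM in pol2a-2 and 172 to 209 CPM in WT, and the green tissue markers to 513 to 527 CPM in pol2a-2 and 202 to 414 CPM in WT. In pol2a-1 meiocytes the same sums were 180 to 275 and 375 to 385 CPM, with none called. Their part in the short TE calls was not tested.

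AT1TE10615 was at 0 in pol2a-2 in both tissues. It was also lower in pol2a-2 than in pol2a-1 meiocytes, which had 1.72 and 1.65 CPM (adjusted p = 0.0285, edgeR, lost without any 1 of the 4 libraries). In seedlings it was at 0 in both pol2a-2 libraries, at 0.332 and 1.01 CPM in pol2a-1, and at 0.377 and 0.596 CPM in WT (adjusted p against WT 0.0507). It was read in all 16 libraries of the other genotypes. The TE with the next id, AT1TE10830 (1661 bases, not a short TE), was at 0 in pol2a-2 meiocytes and at 0.0683 and 0 CPM in pol2a-2 seedlings, against 6.82 and 6.06 CPM in WT meiocytes and 4.73 and 5.22 CPM in WT seedlings. In seedlings, pol2a-2 and WT are on the same side of the divide.

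Between pol2a-2 and pol2a-1 meiocytes 2 short TEs were higher and 2 lower in pol2a-2, with 109 features called of 21214 (0.514%; 0.358% higher, 0.156% lower). Besides AT2TE76160 and AT1TE10615, AT1TE42250 had 2.60 and 2.79 CPM in pol2a-2 and 0 in pol2a-1, at least 32.6-fold higher (adjusted p = 0.00703, edgeR). AT1TE37065 (223 bases) had 6.45 and 1.54 CPM in pol2a-2 and 0.0555 and 0 CPM in pol2a-1, a ratio of 139 with a 95% interval of 24.3 to 5536 for its 1 count in pol2a-1 (adjusted p = 0.0143). The AT1TE42250 call was lost without either pol2a-1 library (adjusted p up to 0.091) and that of AT1TE37065 without either pol2a-1 library or pol2a-2 replicate 1 (up to 0.202).

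In pol2a-1 seedlings no short TE was called against WT by edgeR, with 6 features called of 22297 (0.0269%; 0.0224% higher, 0.00448% lower). At an unadjusted p under 0.05, 70 were higher and 73 lower of 1144 (6.12% and 6.38%), below the 8.28% and 7.07% of all features. The DESeq2 Wald test called 3, or 0.413% of the short TEs with an adjusted p, against 0.63% of all features. The median log2 difference was -0.06, against 0.02 over all features. The tapetum markers summed to 0.332 to 28.6 CPM in pol2a-1 and 1.60 to 1.68 CPM in WT seedlings, with all 6 tested positive. The meiocyte markers summed to 17.9 to 20.4 and 12.7 to 14.2 CPM (3 of 8 tested positive). The green tissue markers summed to 53210 to 54888 and 53115 to 54712 CPM (5 of 9 positive). None was called in the 3 lists, and their part in the result was not tested.

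In pol2a-2 seedlings 6 short TEs were higher and 5 lower than in WT (0.962% of those tested), with 585 features called of 22297 (2.62%; 1.69% higher, 0.937% lower). The median log2 difference was -0.08 over the short TEs and -0.02 over all features. AT1TE06655 (147 bases) had 0.0683 and 0 CPM in pol2a-2 seedlings and 4.01 and 4.62 CPM in WT seedlings. The ratio was 164 with a 95% interval of 29.1 to 6487 (adjusted p = 0.000455, edgeR), and the call was kept when any 1 library was left out. It had 4.18 and 4.12 CPM in pol2a-1 seedlings and was the only short TE called between pol2a-2 and pol2a-1 seedlings (adjusted p = 0.00108), where 86 features of 22297 were called (0.386%; 0.233% higher, 0.152% lower). The other lower elements were AT1TE12305, AT2TE12740, AT2TE77015 and AT5TE00550, of which AT1TE12305 (91 bases) and AT2TE12740 (185 bases) were at 0 in both pol2a-2 libraries. AT1TE12305 had 0.610 and 1.23 CPM in WT seedlings.

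Among the higher ones, AT4TE09845 (372 bases) had 13.0 and 6.77 CPM in pol2a-2 seedlings and 1.28 and 2.24 CPM in WT (adjusted p = 0.0311, edgeR). AT1TE53070 (126 bases) had 4.98 and 5.50 CPM in pol2a-2 and 0.639 and 0.261 CPM in WT (adjusted p = 0.0185). AT4TE61260, AT3TE29990 and AT4TE02340 rose by 1.08, 0.96 and 0.71 on the log2 scale. AT1TE75580, described with the other mutants further on, was also higher. Every pol2a-2 seedling call other than that of AT1TE06655 was lost without WT replicate 1, with adjusted p values up to 0.338 over the libraries left out. The count of called elements became 16 without pol2a-2 replicate 1 and 110 without replicate 2 of that group, and 1 without WT replicate 1 and 2 without WT replicate 2, so it depended on the libraries used. Shares over all features with a library left out were not set beside these counts, so they do not compare short TEs with other features. Markers differed in the pol2a-2 seedling libraries too. The 9 meiocyte markers summed to 40.6 to 42.8 CPM in pol2a-2 and 12.7 to 14.2 CPM in WT seedlings, and DMC1, a recombinase of meiosis, was called among them (log2 difference 2.05 ± 0.16 SE, adjusted p = 0.000517, edgeR). Of the 8 tested, 6 had a positive log2 difference. The tapetum markers summed to 4.40 to 7.85 CPM in pol2a-2 and 1.60 to 1.68 CPM in WT, and the green tissue markers to 46078 to 48302 CPM in pol2a-2 and 53115 to 54712 CPM in WT, with none called in either list. Their part in the short TE calls was not tested.

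In suvh2suvh9 seedlings 103 short TEs were higher and 61 lower than in WT, 14.3% of the 1144 tested, with 2428 features called of 22297 (10.9%). Higher calls were 9.00% of short TEs and 5.4% of all features, and lower calls 5.33% and 5.49%. The median log2 difference over the tested short TEs was 0.13, against 0 over all features. Among the 103, the median log2 difference was 1.77, 86 were at least 2-fold and 43 at least 4-fold higher, and 16 (15.5%) had no count in WT seedlings, against 6.22% of all features called higher. Among the 61 the median was -1.63. An element without a count in WT passed the filter only through other seedling groups, and could only be called higher. Features of like counts were not compared. This comparison and that of the triple mutant below cross the divide.

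In triple mutant seedlings 111 short TEs were higher and 61 lower than in WT, 15.0% of those tested, with 2962 features called of 22297 (13.3%). Higher calls were 9.70% of short TEs and 7.21% of all features, and lower calls 5.33% and 6.08%. The medians of the called elements were 1.65 and -1.62. TEs of 2000 bases or more were called higher in 9.71% of 206 tested in suvh2suvh9 and in 30.6% in the triple mutant, while the share of short TEs called higher was 9.00% and 9.70%. Both mutants were set against the same WT libraries, and the difference between the size classes was not tested.

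Among other genes, the 9 green tissue markers summed to 62799 to 70800 CPM in suvh2suvh9, 67765 to 70008 CPM in triple mutant and 53115 to 54712 CPM in WT seedlings. Of these, 1 was called higher in suvh2suvh9 and 2 in the triple mutant, namely RBCS1A, a small subunit of Rubisco, in both (adjusted p = 0.0151 and 0.00286, edgeR) and GAPA in the triple mutant (0.0132). Positive log2 differences from WT were seen for 7 of the 9 in suvh2suvh9 and 6 in the triple mutant. The 9 meiocyte markers summed to 16.3 to 16.6 CPM in suvh2suvh9, 21.8 to 24.1 CPM in triple mutant and 12.7 to 14.2 CPM in WT seedlings. Of the 8 tested, 4 had a positive log2 difference in suvh2suvh9 and 5 in the triple mutant. DMC1 was called higher among them in the triple mutant (log2 difference 1.01, adjusted p = 0.00414, edgeR). The tapetum markers summed to 0.294 to 0.337, 0.144 to 0.218 and 1.60 to 1.68 CPM in these groups, with 7 of 9 at 0 in each mutant and 2 in WT, and none called. Their part in the short TE calls was not tested. Both sets of calls shrank when a library was left out, which leaves 1 library in a group. Shares over all features were not set beside the counts that follow, so they do not compare short TEs with other features. The suvh2suvh9 count of 164 became 44 without WT replicate 1, 56 without WT replicate 2, 67 without suvh2suvh9 replicate 1 and 46 without suvh2suvh9 replicate 2. The triple mutant count of 172 became 42 without WT replicate 1, 64 without WT replicate 2, 46 without triple mutant replicate 1 and 60 without triple mutant replicate 2.

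**Figure D4:**
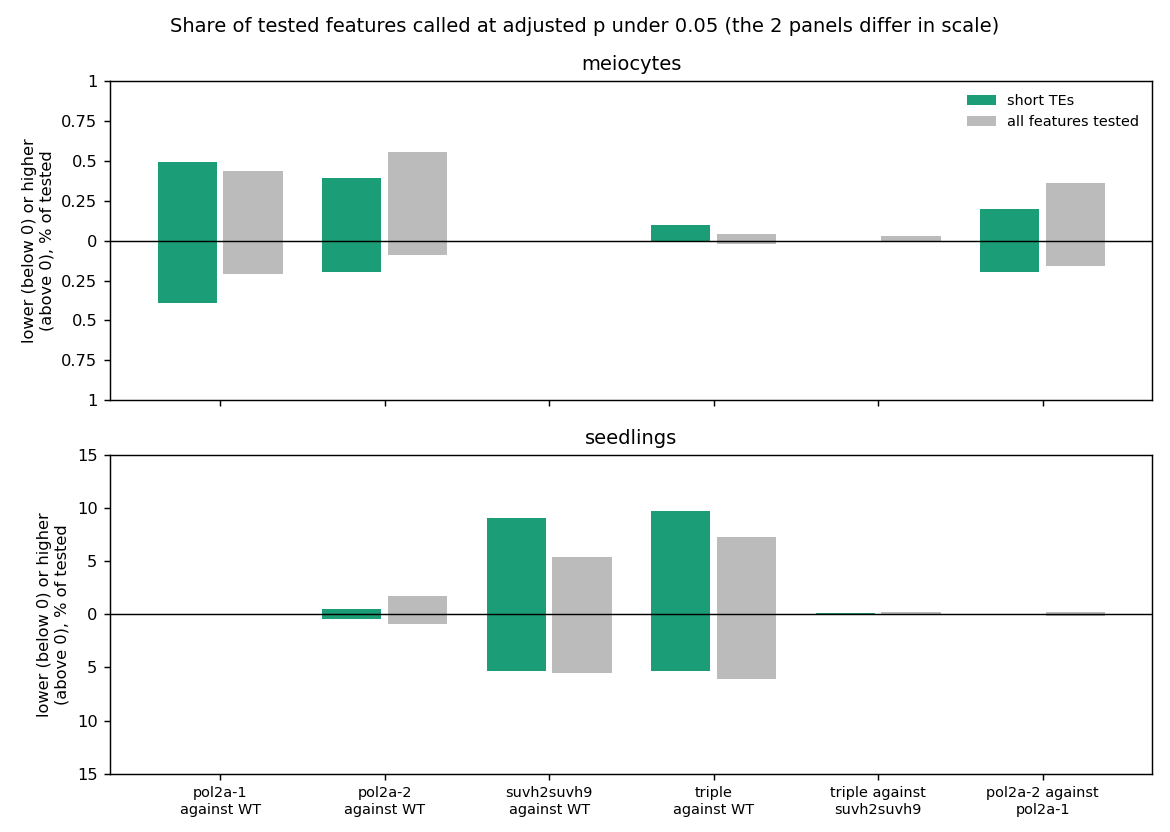
Percent of tested short TEs (green) and of all tested features (grey) called at an adjusted p under 0.05, higher above the line and lower below it, in each comparison; the meiocyte and seedling panels differ in scale, and triple stands for pol2a-1suvh2suvh9. Higher calls of short TEs reach 9.00% in suvh2suvh9 seedlings and 9.70% in triple mutant seedlings, against 5.4% and 7.21% of all features, and no bar in meiocytes exceeds 1%.

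The highest-fold element in both was AT1TE72010 (146 bases), with 12.7 and 11.4 CPM in suvh2suvh9 seedlings, 9.74 and 11.4 CPM in triple mutant seedlings and 0 in all 6 WT, pol2a-1 and pol2a-2 seedling libraries. It was at least 246-fold higher in suvh2suvh9 (adjusted p = 4.88e-05) and at least 214-fold higher in the triple mutant (adjusted p = 5.87e-05, edgeR), and the calls were kept when any 1 library was left out. In meiocytes it was read at 0.666 and 1.1 CPM in pol2a-1 and at 1.51 and 0.881 CPM in pol2a-2 and was at 0 in WT, suvh2suvh9 and the triple mutant. Its reads thus lay on the same side of the divide in both tissues, in different genotypes. AT2TE14720 and AT5TE74135 (171 bases) showed the same split.

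In all, 8 short TEs were read on 1 side only in both tissues: AT1TE28395, AT1TE72010, AT1TE72065, AT2TE14720, AT3TE20775, AT5TE37680, AT5TE74135 and AT5TE74220. In seedlings 85 short TEs were at 0 in the 6 WT, pol2a-1 and pol2a-2 libraries with at least 5 counts over the 4 suvh2suvh9 and triple mutant libraries. That is 4.82% of the 1765 short TEs so counted, against 1.44% of all features. The reverse held for 188 of 1999 short TEs (9.40%), against 3.3% of all features. Of the 103 elements higher in suvh2suvh9 seedlings, 7 had meiocyte reads on the pol2a side alone and 15 had no meiocyte read at all. Leaving out elements with that meiocyte pattern, an alternative chosen after seeing the data, gave 156 calls in suvh2suvh9 and 165 in the triple mutant seedlings. It kept 1129 of the 1144 tested short TEs, so the counts could change only little. How the handling of repeats bears on the remaining calls was not tested.

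Several elements with reads in WT seedlings were higher as well. AT4TE09845 had 39.1 and 18.9 CPM in suvh2suvh9, 34.6 and 29.9 CPM in the triple mutant and 1.28 and 2.24 CPM in WT seedlings. The log2 difference was 4.07 ± 0.48 in suvh2suvh9 and 4.24 ± 0.48 in the triple mutant (SE; adjusted p = 0.000875 and 0.000667, edgeR), and it was kept when any 1 library was left out. With pol2a-2 it was called in 3 of 4 mutants, while pol2a-1 seedlings had 1.86 and 3.11 CPM (adjusted p = 0.642). Its neighbour by id AT4TE09850 (143 bases) had 0.954 and 0.450 CPM in suvh2suvh9, 0.686 and 0.566 CPM in the triple mutant, 0.205 and 0.127 CPM in pol2a-2, and 0 in pol2a-1 and WT. Neither had more than 0.116 CPM in any meiocyte library.

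AT3TE62065 (271 bases) had 4.40 and 2.77 CPM in suvh2suvh9, 1.59 and 3.13 CPM in the triple mutant and 0 and 0.0746 CPM in WT seedlings. The ratio was 110 in suvh2suvh9 with a 95% interval of 30.1 to 916 and 70.1 in the triple mutant with an interval of 19.0 to 586 (adjusted p = 0.0016 and 0.00254, edgeR). It was read in 9 of 10 meiocyte libraries at 0.255 to 0.838 CPM. AT1TE75580 (440 bases) was at 0 in both WT seedling libraries and had 0.225 to 0.514 CPM in all 8 mutant seedling libraries, and was called in pol2a-2, suvh2suvh9 and the triple mutant. Each of those 3 calls was lost without either WT library or without replicate 1 of the mutant (adjusted p up to 0.263).

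AT3TE43830 (426 bases) was at 0 in every meiocyte library and in the WT, pol2a-1 and pol2a-2 seedlings, and had 1.1 and 4.98 CPM in suvh2suvh9 and 0.866 and 0.958 CPM in triple mutant seedlings. Its suvh2suvh9 call (adjusted p = 0.0102, edgeR) was lost without either WT library (up to 0.0722). AT4TE21505 (245 bases) had 0.110 and 0.337 CPM in suvh2suvh9 and 1.19 and 0.827 CPM in the triple mutant seedlings, and 0.153 and 0.534 CPM in suvh2suvh9 and 2.26 and 0.236 CPM in the triple mutant meiocytes. It was at 0 in the other 12 libraries, like AT4TE40115, and was called in triple mutant seedlings (adjusted p = 0.0141, lost without any 1 library, up to 0.0983).

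Among lower elements, AT3TE70135 (239 bases) had 0.440 and 0.749 CPM in suvh2suvh9, 0.253 and 0.566 CPM in the triple mutant and 6.30 and 4.62 CPM in WT seedlings. It fell by 3.19 on the log2 scale in suvh2suvh9 and by 3.73 in the triple mutant (adjusted p = 0.00146 and 0.000792, edgeR), and the calls were kept when any 1 library was left out. AT1TE04835 (411 bases) had 4.84 and 5.66 CPM in suvh2suvh9, 3.10 and 4.79 CPM in the triple mutant and 14.7 and 21.6 CPM in WT seedlings. The log2 differences were -1.79 and -2.19 (adjusted p = 0.00262 and 0.00102, edgeR). It was not called in pol2a-1 or pol2a-2 seedlings (adjusted p = 0.227 and 0.168), whose libraries had 8.49 to 13.4 CPM, all below both WT libraries.

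AT4TE42885, AT4TE42890 and AT4TE42895, a run of neighbouring ids chosen after their values were seen, were all lower in the triple mutant (adjusted p = 0.014, 0.0279 and 0.000536, edgeR). AT4TE42895 (277 bases), the most abundant of them, had 3.30 and 2.85 CPM in suvh2suvh9, 2.71 and 3.44 CPM in the triple mutant and 10.6 and 11.8 CPM in WT seedlings. It fell by 1.86 on the log2 scale in suvh2suvh9 and by 1.85 in the triple mutant (adjusted p = 0.000508 in suvh2suvh9, edgeR). AT3TE44395 (211 bases) was lower in suvh2suvh9 seedlings, at 0 in both libraries, but the WT libraries had 4.18 and 0.261 CPM. AT2TE25290 and AT2TE25295, with 2.32 and 7.55 CPM in WT replicate 1 and 0.447 and 1.34 CPM in WT replicate 2, were lower too. These 3 calls were lost without WT replicate 1 or without either suvh2suvh9 library (adjusted p up to 0.177, 0.294 and 0.257, edgeR).

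Calls of neighbouring ids in the same direction numbered 14 of 103 higher and 8 of 61 lower elements in suvh2suvh9 seedlings, and 17 of 111 and 14 of 61 in the triple mutant seedlings. Here too the share expected for neighbours of any tested element was not worked out. The run AT2TE18045, AT2TE18050 and AT2TE18055 (the last has 871 bases and is not a short TE) and the pair AT3TE40130 and AT3TE40135 were at 0 in both WT seedling libraries and were called higher in both mutants (adjusted p 0.0167 to 0.044, edgeR). AT3TE40135 (198 bases) had 1.21 and 0.599 CPM in suvh2suvh9 and 0.253 and 0.914 CPM in the triple mutant, and 0 in all other libraries of either tissue. By length, called elements of suvh2suvh9 seedlings were 11 higher and 0 lower under 50 bases, 14 and 9 at 50 to 99 bases, and 37 and 20 at 100 to 199 bases. Further up they were 21 higher and 14 lower at 200 to 299 bases, 15 and 6 at 300 to 399 bases, and 5 and 12 at 400 to 499 bases. The share called of those tested was 10.9%, 12.2%, 14.5%, 17.2%, 14.6% and 14.8% over these classes. In triple mutant seedlings 10 were higher and 2 lower under 50 bases, and 7 were higher and 13 lower at 400 to 499 bases. In both mutants the higher calls thus outnumbered the lower ones in the shortest class and not in the longest, a difference that was not tested. In suvh2suvh9 seedlings higher calls by chromosome were 24, 19, 23, 17 and 20 for chromosomes 1 to 5, of 286, 181, 209, 194 and 274 short TEs tested.

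**Figure D5:**
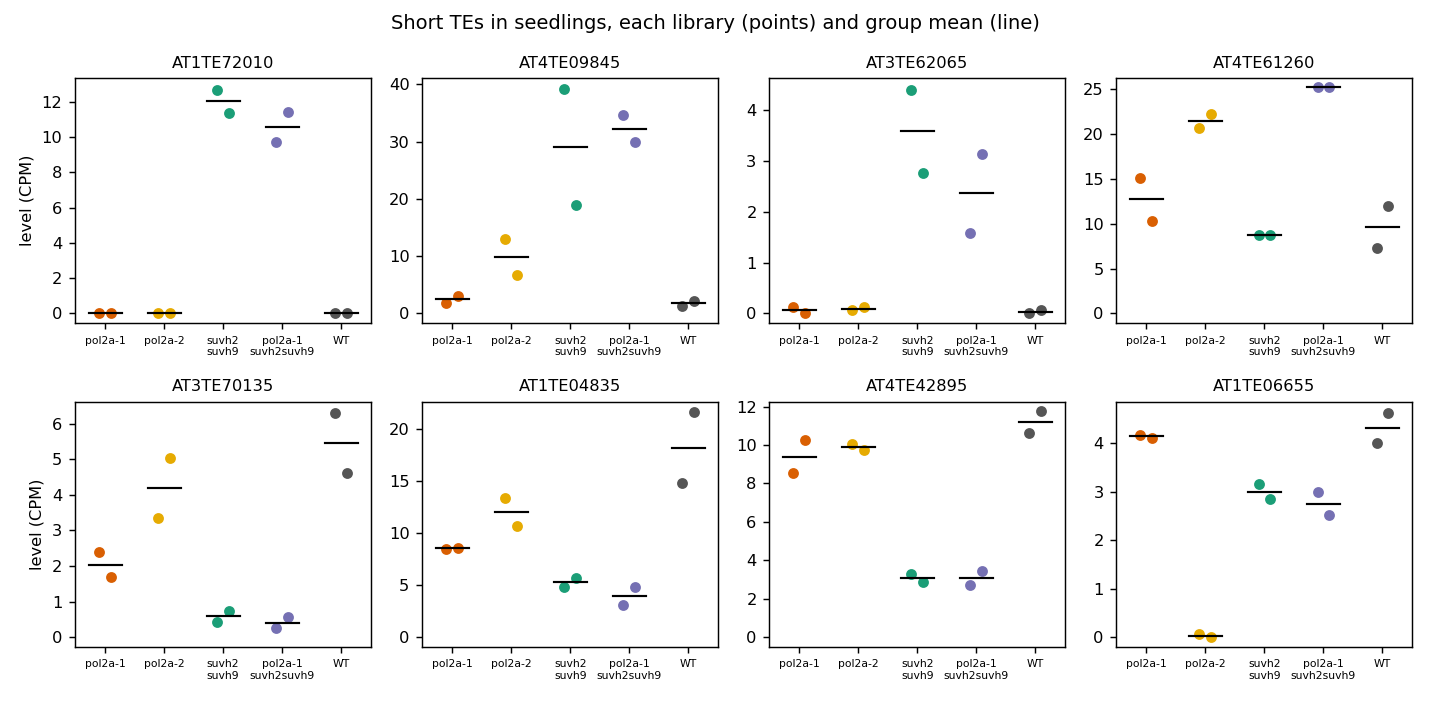
Level in CPM of 8 short TEs in every seedling library; points are libraries, lines are group means, and each panel has its own linear axis that includes 0. AT1TE72010, AT4TE09845 and AT3TE62065 are higher in suvh2suvh9 and the triple mutant than in WT, AT4TE61260 is at 25.3 CPM in both triple mutant libraries, AT3TE70135, AT1TE04835 and AT4TE42895 are lower in suvh2suvh9 and the triple mutant, and AT1TE06655 is near 0 in pol2a-2 alone.

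Between triple mutant and suvh2suvh9 seedlings, a comparison within 1 side of the divide, 1 short TE was called, with 55 features called of 22297 (0.247%; 0.193% higher, 0.0538% lower). AT4TE61260 (190 bases) had 25.3 and 25.3 CPM in the triple mutant and 8.73 and 8.77 CPM in suvh2suvh9 (log2 difference 1.55 ± 0.24 SE, adjusted p = 0.0451, edgeR). It also was higher in the triple mutant and in pol2a-2 than in WT, which had 7.26 and 12 CPM, with 20.8 and 22.3 CPM in pol2a-2 and 15.1 and 10.3 CPM in pol2a-1. The call against suvh2suvh9 was lost without any 1 of the 4 libraries (adjusted p 0.0673 to 0.33). AT3TE60430 (477 bases) had 1.70 and 1.96 CPM in the triple mutant and 0 in suvh2suvh9 and WT seedlings. It was called against WT (at least 37.1-fold, adjusted p = 0.00741, lost without WT replicate 1 at 0.0621) but not against suvh2suvh9 (adjusted p = 0.0792).

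Of 19 RdDM genes, all tested, 2 were lower and none higher in suvh2suvh9 seedlings, namely SUVH2 and SUVH9, and in triple mutant seedlings the same 2 genes were lower and AGO6 and MORC6 higher. Beside these 2 and 4 of 19 genes, 10.9% and 13.3% of all features were called. In meiocytes SUVH9 was called lower in suvh2suvh9, and SUVH2 and SUVH9 in the triple mutant. None was called in pol2a-1 or pol2a-2 in either tissue. The list's median log2 difference was -0.03 in suvh2suvh9 seedlings and -0.16 in triple mutant seedlings, against 0 over all features in both. Of 6 genes that maintain or remove DNA methylation, 1 was called in suvh2suvh9 seedlings, beside 10.9% of all features. That was ROS1, a demethylase whose expression is known to depend on RdDM. It was lower, at 6.50 and 1.57 CPM against 38.4 and 34.6 CPM in WT seedlings (adjusted p = 0.0238, edgeR). The other 5 had positive log2 differences, and the median over the 6 was 0.26. In the triple mutant ROS1 had 9.85 and 9.54 CPM and was not called, and 5 of the 6 were positive (median 0.45). The RdDM list includes SUVH2 and SUVH9, the genes mutated in suvh2suvh9 and the triple mutant, and no sum was made without them. Summed over this list, RdDM genes had 823 to 960 CPM in the 8 mutant meiocyte libraries and 1013 and 1044 CPM in WT meiocytes, so every mutant library was below both WT libraries. In seedlings the sum was 253 to 304 CPM in pol2a-1, 254 to 423 CPM in pol2a-2, 301 to 320 CPM in suvh2suvh9, 278 to 292 CPM in the triple mutant and 339 and 342 CPM in WT. Their part in the short TE calls was not tested.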

How the data were processed

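The authors deposited raw counts per gene and per TE, 1 file per library, with feature lengths. Per the labels' protocols the libraries were made from polyadenylated RNA with a kit that does not keep strand, so overlapping features on opposite strands cannot be told apart. Per the submitters' processing notes, cutadapt 3.4, STAR 2.7.9a, featureCounts 2.0.0, DESeq2 1.30.1 and TAIR10 were used; how reads that match several places were handled is not stated there.

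From the deposited counts, CPM was computed as counts per 1000000 counts of a library (totals 11906055 to 34451852). Differences were tested with edgeR 4.0.16 in R 4.3.3: quasi-likelihood F test, filterByExpr with a minimum count of 10, TMM scaling, 10 libraries of a tissue in 1 fit (20 for WT meiocytes against WT seedlings), and Benjamini-Hochberg adjustment over all features at 0.05. DESeq2 1.42.0 was an alternative. A group without counts was set to 3 counts over the group for a lower bound on a fold. With 1 to 3 counts the ratio has an exact 95% interval. Both cover counting error only. Where nothing says that the 2 libraries of a group came from separate plants, a p-value reflects only how far these libraries differ, which may be technical.

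The members and lists were chosen with earlier results of these data known. Named were, per comparison, among called members the 5 that rose most and the 5 that fell most (no overlap between groups, mean of at least 0.5 CPM), the 8 highest per kb in each WT tissue, and members called in at least 3 of 4 mutants. Other elements named were chosen after their values were seen, and single libraries were left out only for the members named by rule and AT4TE12760. Replicate numbers did not pair the libraries: same-numbered libraries deviated together, at a correlation over 0.1, in 2 of 10 pairs of groups in each tissue. Repeated genes were found by matching exon windows of 100 bases to the genome; leaving such genes out was chosen after seeing the data.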

Additional observations from a re-analysis of the deposited data

Results flagged for a closer look

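Among short TEs called in pol2a-1 meiocytes, 3 were flagged because both pol2a-1 libraries lay on opposite sides of both WT libraries in the 2 tissues. AT4TE59630, not called there, showed the same split, so the 3 are not all such elements. The difference between the tissues was not tested. AT1TE42250 had a log2 difference from WT of -8.08 in pol2a-1 meiocytes and 1.04 in pol2a-1 seedlings. AT4TE14145 had one of 9.20 in pol2a-1 meiocytes and -1.16 in pol2a-1 seedlings. AT5TE83180 had one of -1.34 in pol2a-1 meiocytes and 0.35 in pol2a-1 seedlings. None of the 3 was called in pol2a-1 seedlings. The pol2a-1 and WT meiocyte libraries handled repeated sequence differently, while the seedling libraries of these genotypes did not.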

How the results depend on the processing

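Counts of short TEs called in mutants depended on the settings, and the causes were not tested. The number of short TEs tested changed too. It was 1020 in meiocytes and 1144 in seedlings in the main fits, 3273 and 4764 without a filter, and 1393 in the fit of 20 libraries. Shares over all features are not set beside the counts of this section, so they do not compare short TEs with other features. Counts are given in the order pol2a-1, pol2a-2, suvh2suvh9 and triple mutant against WT, then triple mutant against suvh2suvh9 and pol2a-2 against pol2a-1. In meiocytes the DESeq2 Wald test called 27, 13, 7, 17, 5 and 17, edgeR without a filter 39, 18, 9, 21, 5 and 28, and 1 fit of all 20 libraries 23, 14, 6, 33, 2 and 11. In seedlings the DESeq2 Wald test called 3 in pol2a-1, 26 in pol2a-2, 6 between triple mutant and suvh2suvh9 and 6 between pol2a-2 and pol2a-1. Without a filter edgeR called 72 in pol2a-1, 88 in pol2a-2, 257 in suvh2suvh9, 32 between triple mutant and suvh2suvh9 and 30 between pol2a-2 and pol2a-1 seedlings. The fit of 20 libraries called 1 in pol2a-2, 29 in suvh2suvh9, 31 in the triple mutant and 0 in each of the 2 comparisons between mutants. Fitting only the groups compared gave 3 in pol2a-2, 0 in triple mutant and 1 between pol2a-2 and pol2a-1 meiocytes, and in seedlings 29 in pol2a-1, 2 in pol2a-2, 275 in the triple mutant, 2 between triple mutant and suvh2suvh9 and 0 between pol2a-2 and pol2a-1. Joining the pol2a titles gave 4 for pol2a-1 meiocytes and 0 for pol2a-2 seedlings. Leaving out repeated and organellar genes, chosen after seeing the data, gave 2 in pol2a-2 meiocytes, 156 in suvh2suvh9 seedlings and 169 in triple mutant seedlings. Every TE stayed in under this setting, with 1020 and 1144 short TEs still tested, so it does not show how repeats bear on their calls.

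With the replicate number as a block, 0 short TEs were called in triple mutant meiocytes, 7 in pol2a-2 seedlings and 0 between triple mutant and suvh2suvh9 seedlings, and no other count moved by over 1.5 times. Leaving out 1 library at a time gave, in meiocytes, 2 to 16 for pol2a-1, 2 to 6 for pol2a-2, 0 to 2 for suvh2suvh9, 0 to 1 for the triple mutant, 0 to 1 between triple mutant and suvh2suvh9 and 1 to 4 between pol2a-2 and pol2a-1. In seedlings it gave 0 for pol2a-1, 1 to 110 for pol2a-2, 44 to 67 for suvh2suvh9, 42 to 64 for the triple mutant, 0 to 4 between triple mutant and suvh2suvh9 and 1 to 26 between pol2a-2 and pol2a-1. The WT tissue comparison gave 725 to 776.

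Without the 10 highest elements the summed level was 6045 CPM in pol2a-1, 6602 in pol2a-2, 6812 in suvh2suvh9 and 6427 CPM in triple mutant meiocytes, and 5077 CPM in pol2a-1, 5393 in pol2a-2, 5879 in suvh2suvh9, 5813 in triple mutant and 5143 CPM in WT seedlings. On TMM library sizes it was 6418, 6556, 7357 and 6334 CPM in meiocytes of the 4 mutants in that order and 7487 CPM in WT meiocytes, and 6792 CPM in pol2a-1, 7143 in pol2a-2, 8881 in suvh2suvh9, 8646 in triple mutant and 7797 CPM in WT seedlings, so the pol2a-2 seedling mean, above WT on library totals, was below it. For the 123 calls of named elements, 1164 of 1454 values under alternatives kept direction and call, 290 kept direction and lost the call, and 0 reversed. Elements with few counts are limited by depth: a group's 3-count floor was 0.0490 to 0.117 CPM.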
